A study of Mus musculus with 9 samples.

Results

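Gata2, Fli1, Kdr and Pdgfb, 2 transcription factor genes, a receptor gene and a ligand gene of endothelial cells, were followed in EHE17 cells treated with dinaciclib. They were taken by gene symbol as endothelial factors, receptor and ligand, and are 4 of the 251 genes in the dinaciclib table, or of 720 genes listed in either table of the series. EHE17 is a mouse endothelial tumour line, and every group shared the genotype TC+/+ Cdkn2a -/- and a medium with 20% serum and endothelial growth supplement at 40 ng/ml. The groups were dinaciclib at 300 nM for 16 h, with 3 libraries, MGH-CP1 at 10 µM for 16 h, with 3 libraries, and DMSO vehicle, with 3 libraries. All values come from this single line, and the labels call the replicates biological without saying how the cultures were separated, so that the p-values measure only the spread between these libraries. None of the 4 genes was among the 471 genes of the MGH-CP1 table, and their levels with MGH-CP1 were not analysed here.

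GATA2 is a zinc finger transcription factor and FLI1 a transcription factor of the ETS family. Both bind regulatory elements of blood and vascular genes, where GATA2 works with bHLH factors such as TAL1 and LYL1. KDR, also called VEGF receptor 2, is the receptor tyrosine kinase through which VEGF-A drives endothelial growth, migration and survival. PDGFB is a growth factor that endothelial cells secrete and that draws in pericytes through their receptor PDGFRB. Dinaciclib blocks several cyclin-dependent kinases. CDK9, a target it shares with other such inhibitors, frees RNA polymerase II from its pause near the start of genes.

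The 4 genes lie on different chromosomes (build GRCm38). Gata2 (ENSMUSG00000015053) is on the plus strand of chromosome 6 from 88193891 to 88207032. Fli1 (ENSMUSG00000016087) is on the minus strand of chromosome 9 from 32422204 to 32542861, Kdr (ENSMUSG00000062960) on the minus strand of chromosome 5 from 75932827 to 75978458, and Pdgfb (ENSMUSG00000000489) on the minus strand of chromosome 15 from 79995874 to 80014977. All 4 are protein-coding. Their spans ran from 13142 bases for Gata2 through 19104 for Pdgfb and 45632 for Kdr to 120658 for Fli1, and 52, 66, 134 and 219 of the 251 genes were shorter in span. Their exons add up to 5398 bases in Gata2, 4161 in Pdgfb, 9030 in Kdr and 3486 in Fli1, so long span and long transcript did not go together among them. No exon of another annotated gene covers any of these bases.

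The sequence just before the start of transcription was at hand in RefSeq (GRCm38.p6) for Kdr and for Gata2. It is shown for these 2 because no such sequence was at hand for Fli1 or Pdgfb. Each run below is the 250 bases before the start, 5′ to 3′ on the strand of the gene, at chr5:75978456-75978705 (minus strand) for Kdr and chr6:88193641-88193890 (plus strand) for the upstream start of Gata2. By the coordinates given above, where Kdr ends at 75978458, the last 3 bases of the Kdr run lie in annotated exon sequence. Capitals mark GGGCGG, a GC box, and CCGGAA, an ETS core, on either strand.

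Kdr: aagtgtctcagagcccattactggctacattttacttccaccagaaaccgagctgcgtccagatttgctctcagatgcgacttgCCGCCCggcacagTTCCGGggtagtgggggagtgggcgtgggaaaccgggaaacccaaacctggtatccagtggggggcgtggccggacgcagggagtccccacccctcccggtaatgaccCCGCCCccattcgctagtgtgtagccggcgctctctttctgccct

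Gata2: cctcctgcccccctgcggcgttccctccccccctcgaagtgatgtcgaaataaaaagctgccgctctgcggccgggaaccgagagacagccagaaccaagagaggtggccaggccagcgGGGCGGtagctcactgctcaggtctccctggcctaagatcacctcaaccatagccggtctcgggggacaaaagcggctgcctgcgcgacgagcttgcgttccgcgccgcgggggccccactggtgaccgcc

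The Kdr sequence holds 2 GC boxes, 166 to 161 and 45 to 40 bases before the start, and 1 ETS core 153 to 148 bases before it. The Gata2 sequence holds 1 GC box, 131 to 126 bases before the start, and no ETS core. Over 32851 windows of the same length, 32.7% hold GGGCGG and 12.0% hold CCGGAA on either strand. GATAA, the letters read by GATA factors, is in 22.6% of windows, TATAAA in 12.4%, and CATTCC, read by TEAD factors, in 12.6%, and none of these 3 was found in the sequences shown. The window before the second, downstream start of Gata2, which lies in annotated exon sequence and is not printed, holds CATTCC once, 120 to 115 bases before that start, and 2 GC boxes. CATTCC and CCGGAA can overlap on opposite strands, but no marked match overlaps another. G and C made up 61.6% of the Kdr sequence and 67.2% of the Gata2 sequence, against a median of 52.4% over all windows. A match or its absence describes these letters alone.

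Library totals were worked out from the deposited counts, FPKM and gene lengths. Dinaciclib libraries held 2541162 to 3316779 counts and vehicle libraries 31852117 to 40020833, a 12.2-fold gap between the group means. The 251 listed genes took 9.61% to 12.3% of these totals in dinaciclib libraries and 2.53% to 2.57% in vehicle libraries. Dinaciclib replicate 2 stood apart from the other two. It was the highest of the 3 dinaciclib libraries in 50.0% of the 186 genes that were lower with dinaciclib, and the lowest in 82.3% of the 62 that were higher. Levels are given as normalised counts, which are counts divided by the authors' size factor of each library, and are relative to the rest of that library. In bulk RNA, fewer cells that use a gene and less of its RNA per cell cannot be told apart.

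All 4 genes were lower with dinaciclib, and in each of them the 3 dinaciclib libraries lay below the 3 vehicle libraries. The share of the vehicle mean that was left was 21.3% for Kdr, 13.3% for Fli1, 10.4% for Gata2 and 1.37% for Pdgfb. The table lists only genes that the authors picked for a change on these same libraries, and 100% of the 248 genes tested passed an adjusted p of 0.05 (edgeR's quasi-likelihood test, Benjamini-Hochberg adjustment). Of those 248, 75.0% were called lower, and 74.1% of the 251 listed genes had all dinaciclib libraries below all vehicle libraries. A count of 4 lower genes out of 4 is therefore read against a table in which most genes were lower, and the calls are no independent evidence.

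**Figure D1:**
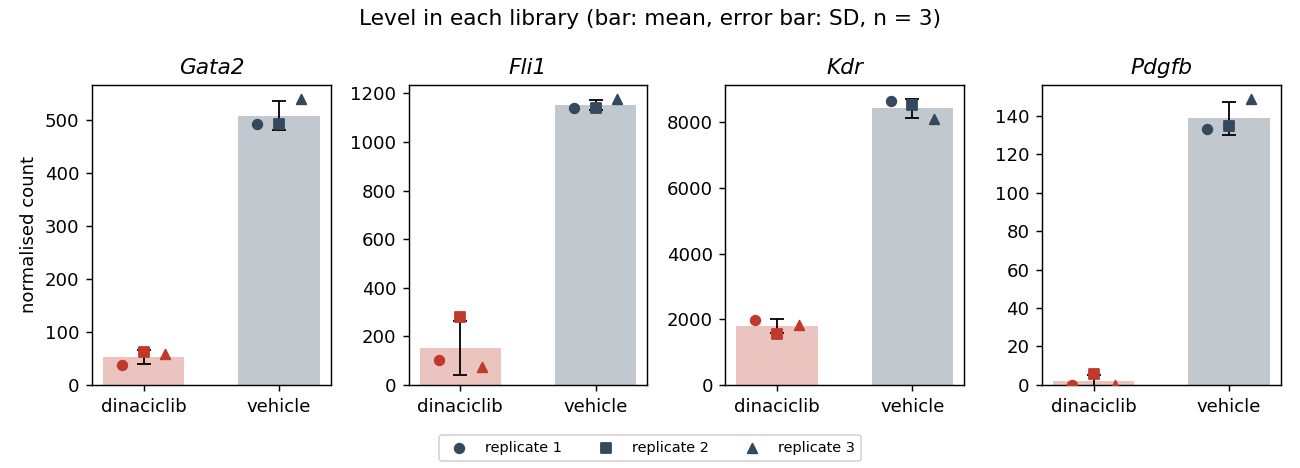
Normalised counts (y axis, from 0, a scale of its own in each panel) of Gata2, Fli1, Kdr and Pdgfb in the 3 dinaciclib and the 3 vehicle libraries. Bars are means and error bars SD over n = 3, and marker shapes stand for replicate numbers. In each panel all dinaciclib points lie below all vehicle points, and Fli1 has its highest dinaciclib point, 279.6, in replicate 2.

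Gata2 had 37.0, 62.8 and 59.0 normalised counts in the dinaciclib libraries, against 492.1, 492.1 and 539 in the vehicle libraries. The groups were far apart, with dinaciclib replicate 1 the lowest. These values rest on 10, 22 and 18 counts with dinaciclib and on 1515, 1630 and 2093 in vehicle. The log2 change of Gata2 was −3.24 with SE 0.238, and its p, adjusted over the whole table (edgeR, quasi-likelihood), was 2.28e-06. Gata2 was the single gene of the zf-GATA family in the table.

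Fli1 had 104, 279.6 and 75.3 normalised counts with dinaciclib, against 1141, 1138 and 1176 in vehicle. Its vehicle libraries were close together, whereas dinaciclib replicate 2 stood at 24.3% of the vehicle mean and replicates 1 and 3 at 8.99% and 6.54%. Among the 186 lower genes, 11 had a larger ratio of replicate 2 to the mean of replicates 1 and 3 than Fli1, whose ratio was 3.10. For this ratio 1 normalised count was added to replicate 2 and to that mean. The counts were 28, 98 and 23 with dinaciclib and 3514, 3769 and 4563 in vehicle. The log2 change was −2.88 with SE 0.396 (edgeR, adjusted p 0.00012), and −3.70 without dinaciclib replicate 2. The part of that library in the size of the fall was not tested further.

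Kdr had 1982, 1546 and 1838 normalised counts with dinaciclib, against 8628, 8524 and 8100 in vehicle. It was the most evenly lowered of the 4, at 23.6%, 18.4% and 21.8% of the vehicle mean, and here dinaciclib replicate 2 was the lowest library, not the highest. With 536, 542 and 561 counts it was also the best covered with dinaciclib, against 26562, 28233 and 31430 counts in vehicle. Its log2 change was −2.24 with SE 0.102 (edgeR, adjusted p 1.46e-07).

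Pdgfb had 0, 2 and 0 counts with dinaciclib, against 410, 446 and 577 in vehicle. As normalised counts this was 0, 5.71 and 0, against 133, 135 and 149. The only 2 counts were in dinaciclib replicate 2. The ratio of summed counts, scaled by the size factors, put dinaciclib at 1.55% of vehicle, with an exact 95% interval of 0.187% to 5.60% that covers counting error only. Without dinaciclib replicate 2 no count was left, and with a floor of 3 counts over the group Pdgfb was at least 26.6-fold lower. In the same edgeR fit Pdgfb had an adjusted p of 5.93e-06. Its fitted log2 change depends on how so few counts are handled and is not printed.

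**Figure D2:**
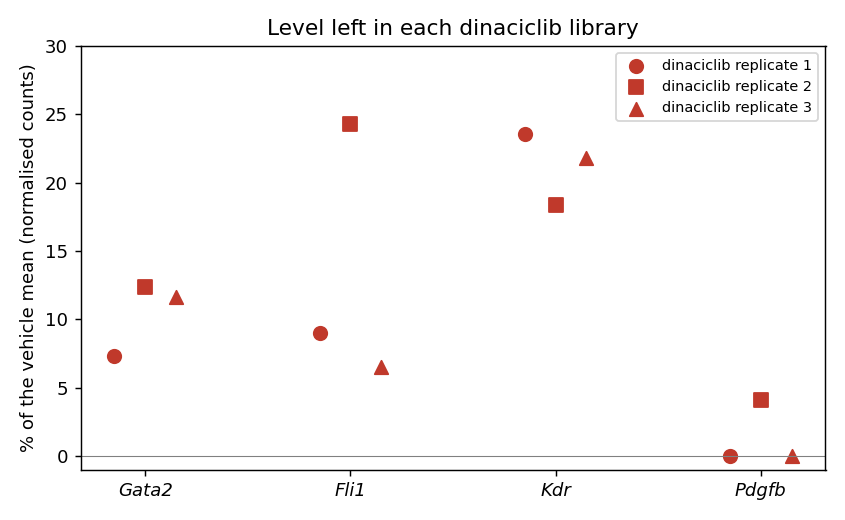
Level left in each dinaciclib library, as a percentage of the vehicle mean of normalised counts (y axis), for Gata2, Fli1, Kdr and Pdgfb. Each point is 1 library. Kdr lies between 18.4% and 23.6%, while Fli1 spreads from 6.54% to 24.3%, and Pdgfb is at 0 in 2 of 3 libraries.

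Per length of transcript, the 4 genes kept their order in all 6 libraries. In FPKM, Kdr averaged 21.1 ± 2.69 with dinaciclib and 90.3 ± 2.90 in vehicle (SD, n = 3 each). Fli1 averaged 4.65 ± 3.34 with dinaciclib and 32.0 ± 0.609 in vehicle, and Gata2 1.04 ± 0.272 with dinaciclib and 9.11 ± 0.498 in vehicle. Pdgfb was the lowest, at 0, 0.145 and 0 FPKM in the dinaciclib libraries and 3.09, 3.14 and 3.46 FPKM in the vehicle libraries. Within each group the ranges of neighbours in this order, Kdr, Fli1, Gata2 and Pdgfb, did not overlap. By ratio, the closest pair was Fli1 and Gata2 with dinaciclib, where the lowest Fli1 value was 2.31 FPKM and the highest Gata2 value 1.23 FPKM.

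Set among the 251 listed genes by mean FPKM, each member stood lower with dinaciclib than in vehicle. Kdr ranked 48th with dinaciclib and 11th in vehicle, and Fli1 84th with dinaciclib and 32nd in vehicle. Gata2 ranked 183rd with dinaciclib and 119th in vehicle, and Pdgfb 241st with dinaciclib and 195th in vehicle. FPKM uses the total count of the library in place of the size factor, and on that scale 23.3% of the vehicle level of Kdr was left, 14.5% of Fli1 and 11.4% of Gata2.

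By log2 change from the lowest, Pdgfb was 10th of the 248 tested genes, Gata2 49th, Fli1 66th and Kdr 104th. The rank of Pdgfb rests on 2 counts with dinaciclib. The median log2 change over all tested genes was −1.83. Relative to that median the log2 change was −1.41 for Gata2, −1.05 for Fli1 and −0.41 for Kdr. With TMM factors over the listed genes, which treat most of them as unchanged, the median moved by 1.60, 166 genes were called, 96 lower and 70 higher, in place of 186 lower and 62 higher, and the 4 genes were still called lower. Relative to the median of that fit Gata2 was at −1.41, Fli1 at −1.08 and Kdr at −0.38. Total counts as library sizes moved the median by 0.13.

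**Figure D3:**
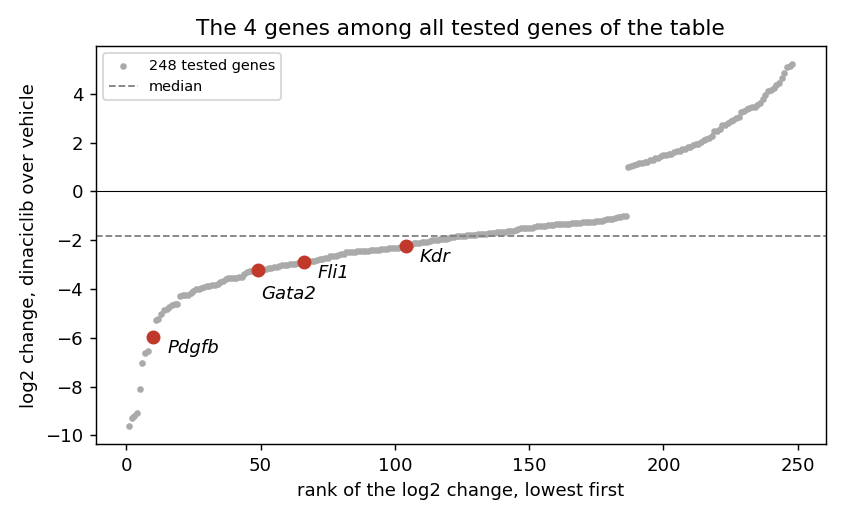
Fitted log2 change, dinaciclib over vehicle (y axis), of the 248 tested genes of the table in order of size (x axis), with Pdgfb, Gata2, Fli1 and Kdr marked and the median, −1.83, as a dashed line. All 4 lie below the median, Kdr nearest to it. The place of Pdgfb rests on 2 counts with dinaciclib. The empty band around 0 comes from the table, which lists only genes with a deposited change of at least 1 log2 unit.

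Ratios of 2 genes within a library need no library scale, and were used to ask whether the falls differed in size. The ratio of Kdr to Gata2 in FPKM was 32.0, 14.7 and 18.6 with dinaciclib, against 10.5, 10.4 and 8.98 in vehicle. The groups did not overlap, and on the log2 scale of counts the ratio was higher by 1.01 with dinaciclib. The two-sided exact permutation p was 0.1, the smallest that 3 against 3 libraries allow, and 0.3 when adjusted over the 3 pairs compared. That smallest p lies above the threshold used for calls, so no pair could have passed, whatever its values. The permutation test therefore cannot decide whether the falls differed in size.

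The ratio of Kdr to Fli1 was 7.39, 2.14 and 9.42 with dinaciclib, against 2.92, 2.89 and 2.66 in vehicle. Here dinaciclib replicate 2 fell below the vehicle libraries and replicates 1 and 3 above them. The log2 difference was 0.89, with an exact permutation p of 0.4 and an adjusted p of 0.6, and 1.54 without dinaciclib replicate 2. The ratio of Fli1 to Gata2 was 4.34, 6.90 and 1.98 with dinaciclib, against 3.59, 3.58 and 3.38 in vehicle, a log2 difference of 0.12 with an exact permutation p of 0.7 and an adjusted p of 0.7. That difference changed sign, to −0.29, without dinaciclib replicate 2. Which of Fli1 and Gata2 was lowered more could not be told from these libraries.

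**Figure D4:**
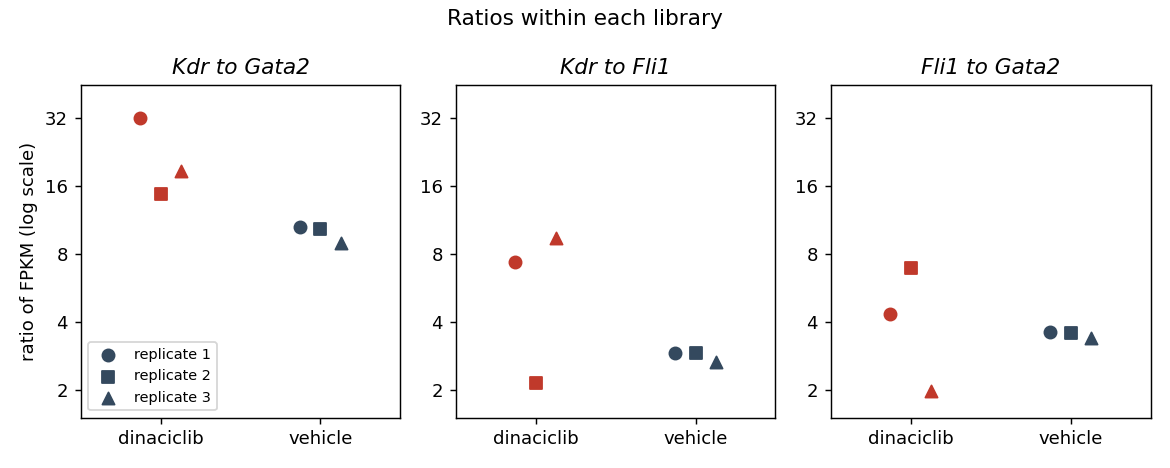
Ratio of FPKM of 2 genes within each library (y axis, log scale) for Kdr to Gata2, Kdr to Fli1 and Fli1 to Gata2, in dinaciclib and vehicle libraries, with marker shapes for replicate numbers. For Kdr to Gata2 the dinaciclib points, 14.7 to 32.0, lie above the vehicle points, 8.98 to 10.5. In the other panels the dinaciclib points fall on both sides of the vehicle points.

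Of 14 GATA factors and partners, 3 were in the table: Gata2 and the partner genes Lyl1 and Tal1. These 3 were lower and 0 were higher, in a table where 75.0% of tested genes were lower, and their median log2 change is that of Gata2 itself. Lyl1, which encodes a bHLH factor of blood and vascular cells, had 51.8, 37.1 and 26.2 normalised counts with dinaciclib, against 654, 632 and 649 in vehicle. Its dinaciclib values rest on 14, 13 and 8 counts. The groups of Lyl1 were far apart, and 5.94% of the vehicle mean was left. Its log2 change was −4.09 with SE 0.249, the largest fall in this list. Tal1, which encodes the related bHLH factor that the embryo needs to form blood, had 170, 334 and 95.0 normalised counts with dinaciclib, against 759, 817 and 808 in vehicle. Like Fli1, Tal1 was highest in dinaciclib replicate 2. Its log2 change was −1.97 with SE 0.365, close to the −1.83 median of all tested genes, or −2.61 without that library, and with TMM factors it lost its call (adjusted p 0.275, edgeR's quasi-likelihood test).

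Of 26 ETS factor genes, 5 were in the table, and 4 were lower and 1 higher, near the 75.0% and 25.0% of all tested genes, with a median log2 change of −1.27, less far down than the −1.83 of all tested genes. Beside Fli1, Etv5 was lower and Etv4 higher, at log2 changes of −3.24 and 1.94. Etv5 had 14, 24 and 11 counts with dinaciclib. Etv6, a repressor of the family needed in blood and yolk sac vessels of the mouse, averaged 269 ± 54.6 normalised counts with dinaciclib and 646 ± 15.9 in vehicle (SD, n = 3 each). Elf4, an activator of the family known from lymphocytes, averaged 116 ± 11.2 with dinaciclib and 279.7 ± 10.2 in vehicle. The log2 changes of Etv6 and Elf4 were −1.26 and −1.27, but with TMM factors both changed sign, to 0.35 and 0.34, and 2 ETS genes were called lower.

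Of the 20 ligands and receptors of the VEGF and PDGF families, 3 were in the table: Kdr, Pdgfb and Flt3. The first 2 were the ones tested, and 2 were lower and 0 higher, where 75.0% of all tested genes were lower. No median is given for this pair, since it would rest on the few counts of Pdgfb. Flt3, which encodes a blood progenitor receptor related to the PDGF receptors, had too few counts for the test. It had 7, 0 and 4 counts with dinaciclib, against 0, 1 and 1 in vehicle. The ratio of summed counts scaled by the size factors was 61.0, with an exact 95% interval of 13.3 to 566 that covers counting error only. Dinaciclib replicate 2 held none of these counts.

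Of 42 genes of signal carriers below KDR, 6 were in the table, and 4 were lower and 2 higher, near the 75.0% and 25.0% of all tested genes. Their median log2 change was −2.25 beside −1.83 over all tested genes. The lower ones were the MAP kinase kinase genes Map2k1 and Map2k2, and Pik3ca and Pik3r1, which encode the catalytic and regulatory subunits of PI3 kinase. Map2k2 averaged 137 ± 60.6 normalised counts with dinaciclib and 1101 ± 45.2 in vehicle. Pik3ca averaged 125 ± 44.7 with dinaciclib and 606 ± 10.5 in vehicle, and Pik3r1 81.7 ± 25.0 with dinaciclib and 449 ± 23.1 in vehicle.

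Map2k1 averaged 141 ± 67.0 normalised counts with dinaciclib and 679 ± 18.7 in vehicle. With TMM factors 3 of these 4 genes were called lower, since Map2k1 lost its call (adjusted p 0.0557, edgeR's quasi-likelihood test). The higher genes encode AKT kinases, which act below PI3 kinase. Akt1 had 30249, 25531 and 34500 normalised counts with dinaciclib, against 3726, 3366 and 3771 in vehicle, a log2 change of 3.05 with SE 0.129. Akt2 had 673, 499 and 789 with dinaciclib, against 307, 321 and 319 in vehicle, a log2 change of 1.05, which lost its call when tested against a change of 1 log2 unit (adjusted p 0.19, edgeR's glmTreat).

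Over the 57 endothelial identity genes, 9 were in the table, and 8 were lower and 1 higher, with a median log2 change of −2.31 beside −1.83 over all tested genes, of which 75.0% were lower. Of these 9, 4 are Kdr, Fli1, Gata2 and Pdgfb, whose falls are given above and weigh on that median. The log2 changes of the other 5 were −4.09 for Lyl1, −2.31 for Notch1, −1.97 for Tal1, −1.26 for Etv6 and 3.45 for Hey1. They lie on both sides of the −1.83 of all tested genes. With TMM factors 6 of the 9 were called lower, Kdr, Fli1, Gata2 and Pdgfb among them. The counts of this list and of the other 4 lists with tested members were the same without dinaciclib replicate 2. The single gene higher was Hey1, which encodes a repressor induced by Notch. Such defining markers as Cdh5 and Pecam1 were not among the genes listed, and the list rests here on Kdr, Fli1, Gata2 and Pdgfb and the other 5 listed genes alone. The 4 genes were chosen as endothelial genes, so they cannot check the endothelial label, which was not tested here. No gene of the mural (12), fibroblast (10), myeloid and lymphoid (10) or epithelial (8) marker lists was in the dinaciclib table. The MGH-CP1 table held Cd68 and Lyz2 of the myeloid and lymphoid list and Vwf of the endothelial list. Levels of all these markers were not analysed here.

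**Figure D5:**
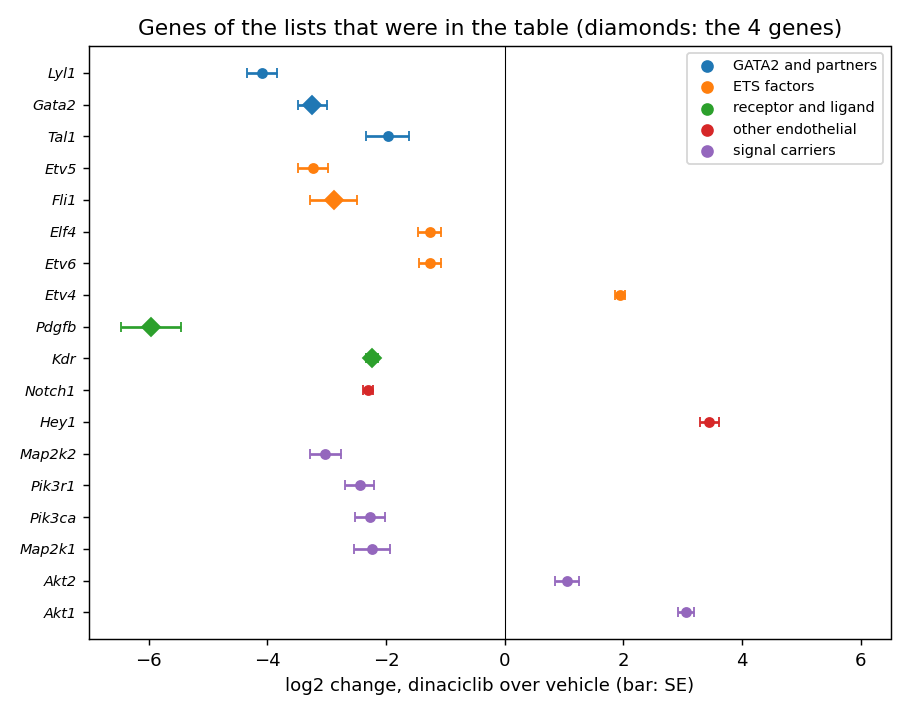
Log2 change, dinaciclib over vehicle (x axis), with SE as bars, of the tested genes of the lists, in colours by list and with diamonds for Gata2, Fli1, Kdr and Pdgfb. The genes of GATA factors and partners all lie left of 0, while Etv4, Hey1, Akt1 and Akt2 lie right of it. With TMM factors Etv6 and Elf4 change sign. The place and the SE bar of Pdgfb rest on 2 counts with dinaciclib.

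For each of the 4, the 3 listed genes with the most similar profile over the 6 libraries were found by the Euclidean distance between log2 normalised counts, each gene taken relative to its own vehicle mean. Kdr was closest to Notch1 (distance 0.204), the gene of a receptor that acts in artery formation and sprouting, then to Map2k4 (0.293), which encodes an activator of JNK, and Thrap3 (0.379), of mRNA processing. Gata2 was closest to Cltc (0.577), the clathrin heavy chain gene, then to the tyrosine kinase gene Abl1 (0.622) and Arid1a (0.629), of the SWI/SNF remodelling complex. Fli1 was closest to the histone demethylase gene Kdm5c (0.584), the deubiquitinase gene Bap1 (0.834) and the zinc finger factor gene Klf6 (0.843), each highest in dinaciclib replicate 2. Pdgfb had no close match: Bcl9, of Wnt signalling, was at 1.03, the centriole gene Stil at 1.60 and the chemokine receptor gene Ackr3 at 2.14. Bcl9 matched the 0, 2 and 0 dinaciclib counts of Pdgfb exactly, and Stil had 0, 7 and 0.

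The deposited table also gives for each gene a tumour type from human cancers. It lists angiosarcoma, a malignant tumour of vessel-type cells, and NSCLC for Kdr. Fli1 is listed for Ewing sarcoma, in which human FLI1 is a common fusion partner of EWSR1, Pdgfb for DFSP, a skin sarcoma in which human PDGFB is fused to COL1A1, and Gata2 for AML (CML blast transformation). Whether these entries decided which genes were listed was not tested, and they are no measurement on EHE17 cells.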

How the data were processed

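RNA sequencing libraries of poly(A)-selected RNA carry no strand mark, per the labels' protocols. The submitters' processing notes name HISAT2 2.0.5 and fastp, DESeq2 1.20.0, and featureCounts 1.5.0-p3. No genome build is given in the sources used here. All 251 gene identifiers of the dinaciclib table are in GENCODE M21 (GRCm38), 242 with the same coordinates, the 4 genes among them. Per the file headers, the authors deposited raw counts and FPKM. The deposited normalised signal equals the count over a size factor of the library in 100% of values (within 0.0001 counts). The deposited log2 fold changes and p-values come from the authors' comparison and were used only to see how genes were picked (adjusted p below 0.05, log2 change of at least 1) and for the MGH-CP1 values below.

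The fit was made with edgeR 4.0.16 (R 4.3.3) on the counts of the 6 libraries of the table, scaled by the authors' size factors, with filterByExpr at a minimum count of 10, over 248 genes, and tested on simulated data. Ratios used a pseudocount of 0.5 and scipy 1.17.1. No replicate pair was within sampling noise (lowest chi-square 5.28 times its degrees of freedom). The 4 genes, 9 lists of 177 genes and the tests were chosen with earlier results of these data known. Named are the 4 genes, list genes in the table, and for each of the 4 the 3 most similar genes with a mean of at least 10 normalised counts; the second start of Gata2 is not shown. Alternatives were TMM, total counts, DESeq2 1.42.0, no filter, a threshold of 0.01, glmTreat, thinned vehicle counts, the replicate block, other pseudocounts and leaving out each library. Figures were drawn with matplotlib 3.10.9. A few genes of the signalling list are not reported here and are in none of its counts.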

Additional observations from a re-analysis of the deposited data

Results flagged for a closer look

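Fli1 itself is not in the MGH-CP1 table, but 4 of the 6 genes annotated inside its introns are, and all 4 were higher with MGH-CP1 than in vehicle. They were flagged because they are a signal in a table that the comparison of the 4 genes does not use. Gm38346, an unconfirmed transcript on the strand of Fli1 (chromosome 9, 32507745 to 32510383), had 6, 15 and 12 counts with MGH-CP1, against 0, 1 and 1 in vehicle, and a log2 fold change of 4.74 in the authors' deposited table. Gm37474 (32525145 to 32526958) had 10, 12 and 8 counts with MGH-CP1, against 2, 0 and 1 in vehicle, and 3.98 in the authors' deposited table. Gm37082 (32535251 to 32537177) had 7, 10 and 9 counts with MGH-CP1, against 3, 0 and 2 in vehicle, and 3.04 in the authors' deposited table. Gm27201, antisense to Fli1 (32508413 to 32516958), had 2, 8 and 2 counts with MGH-CP1, against 0, 0 and 1 in vehicle, and 4.20 in the authors' deposited table, at the authors' adjusted p of 0.0466.

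In each of the 4 the MGH-CP1 libraries lay above the vehicle libraries, on few counts. Gm38346 and Gm27201 overlap in part on opposite strands, so that without a strand mark their reads in the shared stretch cannot be told apart. Reads of the 4 cannot be told apart from unspliced Fli1 RNA either. Such genes were mostly higher in that table: 56 of its 60 genes of this unconfirmed class and 26 of its 28 antisense genes, against 270 of all 471. The intronic genes of Fli1 were thus among many, and their part in Fli1 expression was not tested. Values of these 4 with dinaciclib were not analysed here. Neither of the 2 genes annotated inside or across Pdgfb was in the MGH-CP1 table, and no other gene overlaps Kdr or Gata2.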

How the results depend on the processing

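The 4 genes were called lower under every alternative fit run. Over these the log2 change ran from −2.32 to −0.61 for Kdr, −3.38 to −1.63 for Gata2 and −3.70 to −1.31 for Fli1, the highest value of each coming from TMM factors, and the highest adjusted p was 0.00739 (edgeR's quasi-likelihood test). Between 166 and 251 genes of the table were called. Leaving out 1 library at a time gave log2 differences of 0.71 to 1.25 for Kdr to Gata2, 0.48 to 1.54 for Kdr to Fli1 and −0.29 to 0.60 for Fli1 to Gata2, the negative value without dinaciclib replicate 2; the cause was not tested. With the replicate block 240 genes and all 4 members were called, and permuting within pairs gave p of 0.25, 0.5 and 0.75, where 0.25 is the smallest that 3 pairs allow. Libraries of equal number did not deviate together (correlations over genes of 0.019, −0.025 and −0.14), and no library correlated best with its own number. Whether libraries of equal number shared a culture or a batch was not tested. The list counts were recomputed under the same alternatives after the data had been seen, and with TMM factors 6 of 9 endothelial genes (in place of 8), 2 of 3 GATA factors and partners (3), 2 of 5 ETS genes (4) and 3 of 6 signal carriers (4) were called lower. Depth limits Pdgfb and Flt3, and, with 50 counts summed over the 3 dinaciclib libraries, Gata2. It limits other named genes too, whose sums over the same libraries were 49 for Etv5, 35 for Lyl1, 15 for Ackr3, 7 for Stil and 2 for Bcl9.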
